A study of Mus musculus with 3 samples.

Results

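Translation initiation, elongation and termination factors and the cytosolic tRNA synthetases were examined in the neural retina of the mouse at postnatal day 7. The members were the probe sets annotated with a single gene symbol that names an eukaryotic initiation factor (Eif), an elongation factor (Eef), a release factor (Etf1, Gspt), a poly(A)-binding protein or its partner (Pabp, Paip) or a tRNA synthetase (such as Aars), with Eif2s3x and Eif2s3y left out. The rule itself uses names only and no measured value. It gave 72 of 8251 genes and 97 of the 10833 single-gene probe sets of the array: 19 probe sets of 16 synthetase genes and 78 probe sets of 56 factor genes.

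The study measured total RNA from 3 samples on Affymetrix MG-U74Av2 arrays. Each sample pooled the neural retinas of 3 to 4 animals of a mixed 129/SvEv and C57BL/6 background, which were wild-type littermates of Rp1-/- mice, and the retinas were taken at 1-2 pm. All samples belong to 1 group, so no conditions were compared, and the pools, whose numbers are only names, are set against each other. The p-values therefore describe how these 3 pools differ, and technical differences between arrays may enter them.

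Translation starts when eIF2 brings the initiator tRNA to the small ribosomal subunit, eIF3 and eIF1A hold that complex together, and the cap-binding eIF4 factors load it onto the mRNA. eEF1A then delivers each charged tRNA, eEF2 moves the ribosome along, and the release factors eRF1 and eRF3 end the chain. The tRNA synthetases charge the tRNAs with amino acids. In neurons and muscle the isoform eEF1A2 takes over from eEF1A1 after birth, and both eIF2 phosphorylation and the eIF4E-binding proteins serve as brakes on initiation.

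Intensities were judged against a bar, the 90th percentile of 57 genes of unrelated tissues on the same array, which came to 263.5, 285.5 and 295.4 in pools 1, 2 and 3. By this bar 65 of the 97 members were above background in all 3 pools, 7 in some and 25 in none, while 41.1% of all single-gene probe sets (4453 of 10833) passed in all pools. Among the synthetases 16 of 19 probe sets passed, and among the factors 49 of 78. At the level of genes, 15 of 16 synthetase genes and 42 of 56 factor genes had at least 1 such probe set. Genes with several probe sets had more chances to pass in that count. By 1 probe set per gene the counts were 15 and 41, against 46.1% of all 8251 genes. Genes below the bar may still be expressed, and intensities of different probe sets are not compared with each other, since probes differ in efficiency. In bulk samples like these, fewer cells of a type and less RNA per cell cannot be told apart.

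The labelled tissue was seen in its markers. Of 9 measured rod markers 8 were above background in all pools, and of the 9 Gnat1 (219.2, 698.5 and 680.0) and Prph2 (1261, 981.4 and 3901) had a spread between pools larger than usual at their brightness (limma adjusted p = 0.0162 and 0.000291). Above background in all pools were also 3 of 3 markers for Müller glia and 3 of 3 for ganglion cells, whose median log2 deviation in pool 2 was -0.35. None of 4 muscle markers and 1 of 4 pigment epithelium markers passed. Of 2 measured blood genes, 1 passed: Hba-a1 was above background in all pools, at 2914, 6705 and 2821 in pools 1, 2 and 3. The other, Alas2 (113.4, 150.7 and 60.7), was below the bar in every pool. The spread of Hba-a1 between pools was not called larger than usual at its brightness (limma adjusted p = 0.107). Pool 1 was low in lens RNA: the 6 lens markers above background in all pools had a median log2 deviation of -1.55 there, against 0.70 and 0.84 in pools 2 and 3. It also had the highest 3' to 5' ratio of the Actb control, 1.81 against 1.27 and 1.31. The part of these cell types or of RNA quality in any pool difference of the translation genes was not tested.

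Which pool was high or low is given after scaling to a common median. This scaling left pool 2 the highest for 54.6% of all single-gene probe sets above background, against 34% without it. Values without scaling are the deposited intensities, whose mean without the lowest and highest 2% was already 500.2 to 500.3 in each array. Of the 65 members above background, 46 had the same highest pool also without scaling and after quantile normalisation, and 55 the same lowest pool.

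All 16 synthetase genes but Kars, the lysyl-tRNA synthetase, had a probe set above background in every pool. Gars, which charges glycine tRNA and is mutated in an inherited neuropathy, had intensities of 1432, 1067 and 1084 in pools 1, 2 and 3. Iars, for isoleucine, had 1333, 1675 and 1345. Qars, for glutamine, had 1017, 1418 and 1205. Each of these genes thus kept within 1.39-fold between its lowest and highest pool, with no pool low for all of them. Aars, for alanine, was at 973.3, 1048 and 739.3, and Tars, for threonine, at 977.7, 1039 and 670.5. Mars1, for methionine, was at 1037, 1041 and 731.6. Pool 3 was the low one for these, as it was for Sars (704.3, 646.0 and 473.5) and Vars (738.3, 690.4 and 507.3), the seryl- and valyl-tRNA synthetase genes. Nars, for asparagine, varied little, at 729.6, 749.4 and 694.3. Its spread, an SD of 0.06 on the log2 scale, compares with a median of 0.25 for the 16 synthetase probe sets above background. Cars, Hars, Lars, Rars and Yars, for cysteine, histidine, leucine, arginine and tyrosine, had means between 405.5 and 949.3 by their probe sets above background, while a second one of Yars, with a mean of 218.7, was below the bar in every pool. Kars had 211.4, 202.5 and 351.4 and passed the bar in pool 3 alone.

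**Figure D1:**
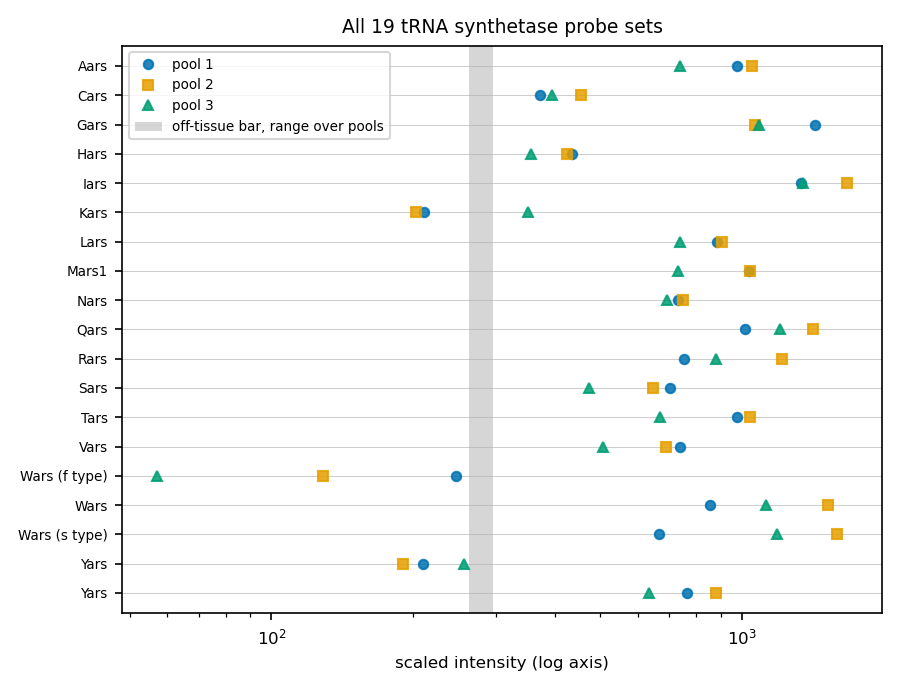
Scaled intensity (log axis) of all 19 tRNA synthetase probe sets in pools 1, 2 and 3 (circles, squares, triangles), with the off-tissue bar, 263.5 to 295.4, as a grey band and the probe set type in brackets. The f type probe set of Wars and 1 of Yars lie left of the band in every pool, and Kars crosses it in pool 3 only.

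Wars, the tryptophanyl-tRNA synthetase gene, which interferon gamma is known to induce, spread most among the synthetases. Its s type probe set, a type that can match several related transcripts, had 664.8, 1593 and 1185 in pools 1, 2 and 3. Its plain probe set had 856.2, 1521 and 1122, so both were lowest in pool 1 and highest in pool 2. Of all single-gene probe sets above background, 39.4% were lowest in pool 1 and 54.6% highest in pool 2. The lowest and highest pools of the s type and plain probe sets differed by 2.40-fold and 1.78-fold. Neither passed the test for a spread in excess of what is usual at its brightness (limma adjusted p = 0.266 and 0.941). Another probe set, of the f type shared within families, was at 247.0, 128.7 and 57.1, below the bar in every pool and in another order.

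Sequence upstream of the start was at hand from RefSeq (GRCm38.p6) for 9 of the 16 synthetase genes and 43 of the 56 factor genes. The 250 bases before each start were searched on both strands for TGATGNAA, the core of the amino acid response element through which ATF4 is known to act. It was present for 3 of 9 synthetase genes, Aars, Gars and Tars, for 1 of 43 factor genes, Eef2k, and for 3.91% of all 27025 genes in the table. The 3 synthetase windows are shown 5′ to 3′ on the gene's strand, with the match in capitals, because they are the synthetase genes with a match. Each reads as the reverse complement of the searched letters.

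Aars, chr8:111033700-111033759, plus strand: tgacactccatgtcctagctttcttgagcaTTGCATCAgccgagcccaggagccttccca

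Gars, chr6:55037941-55038000, plus strand: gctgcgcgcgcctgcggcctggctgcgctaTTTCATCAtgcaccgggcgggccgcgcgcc

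Tars, chr15:11399659-11399718, minus strand: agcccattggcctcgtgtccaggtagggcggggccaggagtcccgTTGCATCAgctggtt

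The match began 112, 30 and 15 bases before the start in Aars, Gars and Tars. Aars and Tars held the same 8 letters, and both were lowest in pool 3, as were 9 of the 16 synthetase probe sets, among them Mars1 and Sars without a match, and 43.9% of all single-gene probe sets above background. Gars held another variant and had 1067 and 1084 in pools 2 and 3. A match of letters is a description and not a shown binding site. Of 20 measured genes from a list of amino acid response targets, 11 were above background in all pools, against 46.1% of all genes read by 1 probe set each. Atf4 itself was at 4570, 6317 and 5817, and Asns, the asparagine synthetase gene of this response, at 1648, 1910 and 1361. Ddit3 (489.5, 350.2 and 347.2), a stress-induced target of ATF4, was highest in pool 1, and Atf4 was lowest there, so these genes did not share 1 order of pools.

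Among the initiation factors, the eIF1, eIF5 and eIF6 group was above background for 8 of 9 probe sets. Eif1b, a relative of the start-codon scanning factor eIF1, had 2678, 3348 and 2661 in pools 1, 2 and 3. Eif5, the GTPase activator of eIF2, had 1236, 1159 and 1191, a range of 1.07-fold. Its log2 SD of 0.05 became 0.14 without scaling and 0.16 after quantile normalisation. Eif1ax, which encodes eIF1A, was read by 2 probe sets, at 740.6, 729.9 and 711.0 and at 1248, 981.3 and 1158. The log2 SD of the first was 0.03, and 0.10 without scaling, while the second was lowest in pool 2 under each scaling. The probe sets of Eif1a, a related gene, were at 564.6, 927.7 and 686.7 and at 676.0, 698.7 and 592.3, and did not share their lowest pool. Eif6, which keeps the large ribosomal subunit from joining early, averaged 786.6 ± 116.1 (SD, n = 3), and Eif5b, the subunit-joining GTPase, 618.4 ± 58.9 by the one of its 2 probe sets above background.

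eIF2 and its exchange factor eIF2B, whose inhibition is the core of the integrated stress response, were grouped with the separate factors eIF2A and eIF2D, and 8 of these 10 probe sets were above background. Eif2a averaged 555.8 ± 80.2 and Eif2d 413.1 ± 44.8 by 1 of its 2 probe sets (SD, n = 3 each). Eif2b1, the alpha subunit of eIF2B, had 576.4, 832.0 and 417.2 in pools 1, 2 and 3, a range of 1.99-fold. Eif2b2 had 629.0, 724.1 and 706.4, and Eif2b4 had 774.3, 870.8 and 650.0. Both probe sets of Eif2b5, the catalytic subunit, had their highest values in pool 2 as well, at 378.8 and 792.5. Pool 2 was thus the highest for all 5 eIF2B probe sets, and for 54.6% of all single-gene probe sets above background, but without scaling Eif2b2 was highest in pool 3, and Eif2b4 and 1 probe set of Eif2b5 in pool 1. Pool 3 was the lowest for all 5 except Eif2b2, also without scaling, against 43.9% and 34.3% of all single-gene probe sets above background. But the Eif2b5 probe set at 378.8 in pool 2 was nearly even without scaling, with log2 deviations of 0.00, 0.01 and -0.01. After quantile normalisation it was lowest in pool 1. Eif2s2, the beta subunit of eIF2, was just above the bar at 285.3, 385.4 and 327.7, and its other probe set was below it in all pools.

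The eIF3 scaffold was above background for 9 of 13 probe sets, from 9 of the 10 subunit genes measured. Eif3c had 4164, 4915 and 3905 in pools 1, 2 and 3, Eif3l had 2536, 3916 and 2977, and Eif3k had 2497, 3052 and 2980. Eif3d, a subunit that can itself bind caps, had 1850, 2835 and 1645. Pool 2 was the highest for all 4 after scaling to the median, as for 54.6% of all single-gene probe sets above background. But Eif3k was highest in pool 3 without scaling and after quantile normalisation, and Eif3c in pool 1 after quantile normalisation. By contrast, Eif3a (1212, 861.3 and 900.6) and Eif3e (855.9, 683.2 and 648.3) were highest in pool 1 under each scaling. Eif3m, at 1547, 1509 and 1430, stayed within 1.08-fold. Its log2 SD of 0.06 became 0.11 without scaling and 0.14 after quantile normalisation. Eif3f was below the bar in all pools, as were the second probe sets of Eif3b, Eif3e and Eif3l.

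The cap and helicase group had 7 of 13 probe sets above background, against 41.1% of all single-gene probe sets. Eif4a1, the RNA helicase of the cap complex, was read by an r type probe set, made under relaxed selection rules, at 1610, 659.9 and 1021 in pools 1, 2 and 3. Its range of 2.44-fold was the widest of the members above background, but did not pass the test (limma adjusted p = 0.261). Eif4a2, the helicase isoform that is prominent in brain, had 4330, 4217 and 3110 and was lowest in pool 3, not in pool 2. Eif4g2, a scaffold that lacks the eIF4E-binding site, had 1051, 1196 and 994.9. Eif4g3, a full-length scaffold, had 1577, 1185 and 821.9, highest in pool 1 and lowest in pool 3. Eif4b, the helicase cofactor, was above background by 2 of 4 probe sets, and these went opposite ways: the g type had 1374, 1940 and 1483 and the r type 775.4, 479.0 and 603.4. Eif4e2, a cap-binding relative of eIF4E, was even, at 319.0, 331.9 and 327.1. Both probe sets of Eif4e, the cap-binding protein itself, and the one of Eif4h were below the bar in every pool.

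**Figure D2:**
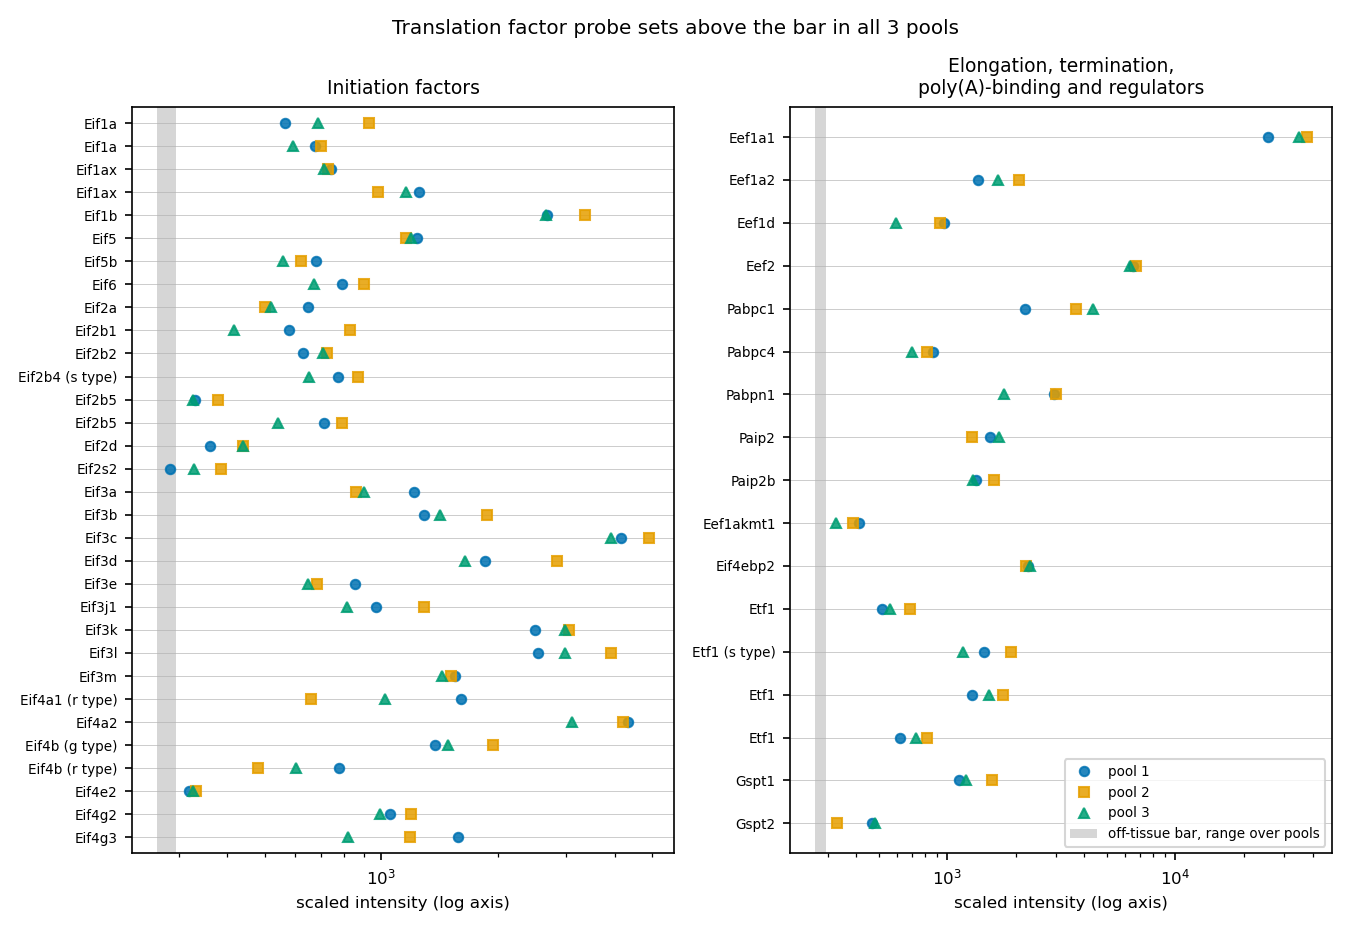
Scaled intensity (log axis) of the 49 factor probe sets above the bar in all pools, 1 row per probe set, with pools 1, 2 and 3 as circles, squares and triangles and the off-tissue bar as a grey band. Eif4a1 shows the widest range, 2.44-fold, while after this scaling to the median the points of Eef2, Eif5, Eif4e2 and Eif4ebp2 lie nearly on top of each other.

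The elongation factors were above background for 4 of 8 probe sets, against 41.1% of all single-gene probe sets. Eef1a1 had intensities of 25629, 37984 and 34914 in pools 1, 2 and 3. Eef1a2, the neuron and muscle isoform, had 1366, 2072 and 1668, above the bar in every pool. Both isoforms were lowest in pool 1 and highest in pool 2. Of all single-gene probe sets above background, 39.4% were lowest in pool 1 and 54.6% highest in pool 2. The log2 deviations of the isoforms differed by -0.04, -0.08 and 0.12 (Eef1a1 minus Eef1a2) in pools 1, 2 and 3. Whether unrelated probe sets lie as close was not tested. After quantile normalisation this closeness was lost, with differences of 0.35, -0.15 and -0.20. Neither varied more than probe sets of its brightness (limma adjusted p = 0.992 each). The order depended on the scaling for Eef1a1, which was highest in pool 3 without scaling and highest in pool 1 after quantile normalisation, where Eef1a2 kept pool 1 as its lowest. Close relatives such as these can bind each other's probes on an array, and the extent of this was not tested. Eef2, the translocase, was at 6498, 6725 and 6312, a range of 1.07-fold. Its log2 SD of 0.05 became 0.07 without scaling and 0.13 after quantile normalisation. Eef1d, of the exchange complex that recharges eEF1A, had 969.1, 927.2 and 595.0 and was lowest in pool 3. Eef1g and Eif5a were below the bar in all pools, and Eef1b2 by both its probe sets in at least 1 pool.

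The 60 bases before the start are shown for the 2 eEF1A isoform genes, whose 250 bases held none of TGATGNAA, CACGTG and CCGGAAG, and around the E-box for the factor genes above background that hold CACGTG, the letters bound by MYC-family proteins. That motif was in 2 of 9 synthetase genes (Aars and Iars) and 9 of 43 factor genes, against 6.86% of all genes. The ETS motif CCGGAAG was in 3 of 9 and 10 of 43, against 7.83% of all genes. Capitals mark the E-box.

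Eef1a1, chr9:78481725-78481784, minus strand: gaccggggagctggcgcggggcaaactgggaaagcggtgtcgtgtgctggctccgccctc

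Eef1a2, chr2:181157016-181157075, minus strand: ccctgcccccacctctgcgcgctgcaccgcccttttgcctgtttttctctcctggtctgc

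Eef2, chr10:81176558-81176617, plus strand: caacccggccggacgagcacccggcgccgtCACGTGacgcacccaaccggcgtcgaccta

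Eif1b, chr9:120492546-120492605, plus strand: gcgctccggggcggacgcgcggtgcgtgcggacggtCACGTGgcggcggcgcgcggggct

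Eif3k, chr7:28981903-28981962, minus strand: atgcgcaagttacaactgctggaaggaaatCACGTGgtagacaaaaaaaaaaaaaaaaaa

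Eif4a1, chr11:69672583-69672642, minus strand: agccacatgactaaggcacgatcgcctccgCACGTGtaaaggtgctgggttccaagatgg

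The E-box began 43, 24, 44 and 189 bases before the start in Eef2, Eif1b, Eif3k and Eif4a1. These genes did not share 1 pattern over the pools: Eif1b was highest and Eif4a1 lowest in pool 2 under each scaling, and Eif3k was highest in pool 2 after scaling to the median but in pool 3 without it and after quantile normalisation. Letters in a window say nothing here about what bound there.

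Termination and poly(A) factors were mostly above background. Etf1, which encodes the release factor eRF1, was read by 5 probe sets, of which 4 were above the bar in all pools. One of these had 1283, 1750 and 1527 in pools 1, 2 and 3. All 4 were highest in pool 2, as were 54.6% of all single-gene probe sets above background. Of these 4 probe sets of 1 gene, 1 was highest in pool 3 without scaling and 2 after quantile normalisation. Gspt1 and Gspt2 encode forms of eRF3, the GTPase partner of eRF1. Gspt1 had 1122, 1577 and 1213, and Gspt2 had 468.0, 330.1 and 484.3, so that pool 2 was the highest for Gspt1 and the lowest for Gspt2. Pabpc1, the main cytoplasmic poly(A)-binding protein, had 2191, 3683 and 4353, low in pool 1. Pabpn1, its nuclear counterpart, had 2930, 3008 and 1778, low in pool 3, and the pair differed in log2 deviation by -0.81 in pool 1 and 0.90 in pool 3 (Pabpc1 minus Pabpn1). Neither Pabpc1 nor Pabpn1 passed the test (limma adjusted p = 0.646 and 0.912). The inhibitors Paip2 and Paip2b, which pull poly(A)-binding protein off the mRNA, averaged 1508 ± 207.6 and 1412 ± 165.1 (SD, n = 3). Pabpc4 averaged 794.2 ± 83.5 by 1 of its 2 probe sets, and Pabpc2, known from testis, passed the bar in pool 1 alone.

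**Figure D3:**
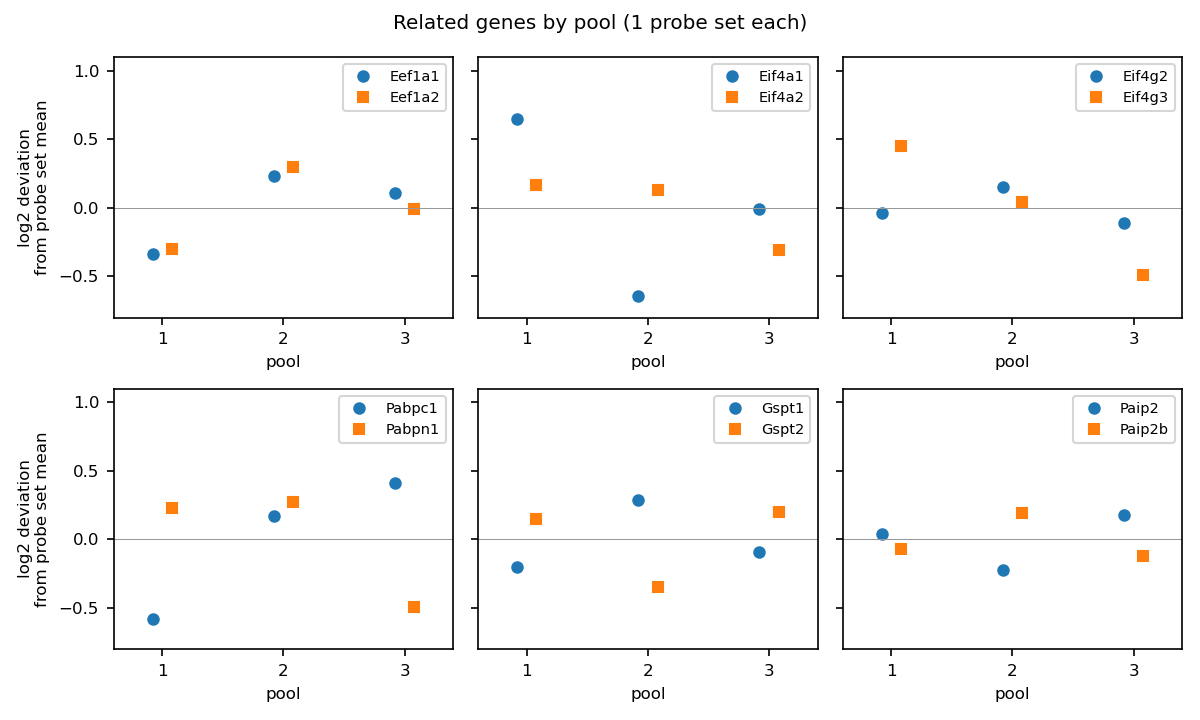
Log2 deviation from the probe set's own mean in pools 1, 2 and 3 for 6 pairs of related genes, 1 probe set each. Eef1a1 and Eef1a2 lie within 0.12 of each other after this scaling to the median, though not after quantile normalisation. Also after scaling to the median, Gspt1 and Gspt2 lie on opposite sides of 0 in each pool, and Pabpc1 and Pabpn1 do so in pools 1 and 3.

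The regulators of translation had the lowest share above background of these groups, 2 of 11 probe sets, against 41.1% of all single-gene probe sets. Eif4ebp2, the brain form of the eIF4E-binding brake, had 2255, 2221 and 2310 in pools 1, 2 and 3 by 1 of its 3 probe sets, an SD of 0.03 on the log2 scale that became 0.13 without scaling and 0.17 after quantile normalisation. Its second probe set, at 367.9, 141.7 and 297.8, crossed the bar, and the remaining one was below it. Eef1akmt1, a lysine methyltransferase of eEF1A, averaged 374.7 ± 44.1 (SD, n = 3). None of the kinases that phosphorylate eIF2 was above the bar in all pools. Eif2ak1, the heme-regulated kinase, had 336.7, 560.0 and 179.3 and passed in pools 1 and 2. Eif2ak4, the amino acid sensor GCN2, had 321.3, 276.7 and 265.8, and Eif2ak3, the endoplasmic reticulum kinase PERK, 283.0, 157.9 and 174.1, each above the bar in pool 1 only. Eif2ak2, the double-stranded RNA sensor PKR, and Eef2k, the kinase of eEF2, were below it in all pools, as were Eif4ebp1 and Eif4enif1.

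The spread between pools was tested on the brighter 50% of probe sets, 6211, of which 73 were members. None of the 73 had a spread in excess of what is usual at its brightness at a limma adjusted p below 0.05, against 1.34% of all tested probe sets (83 of 6211). The lowest adjusted p among members was 0.231, for Eif2ak1. At an unadjusted p below 0.05 there were 5 members of 73, against 6.76% of all: Eif2ak1, Eif4a1, the s type probe set of Wars, Pabpc1 and the second probe set of Eif4ebp2. The members' share is close to that of the array as a whole. A range above 2-fold was found for 5 of the 73, against 8.63% of all tested probe sets. The test recovered 7.61% of 2-fold and 76.9% of 4-fold changes in 1 pool on simulated data for the 6211 probe sets, so most differences near 2-fold would be missed. Of the 65 members above background, 2 (Eif4a1 and Wars) had a range above 2-fold, against 4.09% of all single-gene probe sets above background. The median SD of the tested members was 0.24 on the log2 scale, against 0.26 for all tested single-gene probe sets.

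**Figure D4:**
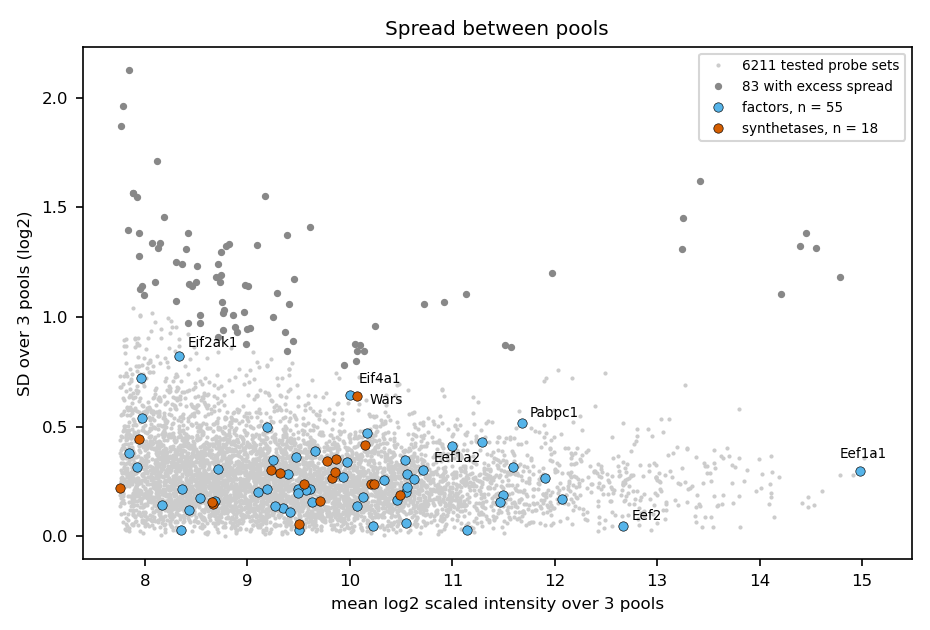
SD over the 3 pools against the mean log2 scaled intensity for the 6211 tested probe sets (light grey), the 83 with excess spread (dark grey), 18 synthetase probe sets (orange) and 55 factor probe sets (blue). No member lies among the dark points, and Eif2ak1, with an SD of 0.82, is the highest of the members.

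The median log2 deviation from the probe set's own mean was 0.05, 0.19 and -0.15 for the 16 synthetase probe sets above background in pools 1, 2 and 3, and -0.02, 0.15 and -0.09 for the 49 factor probe sets. All single-gene probe sets above background had -0.05, 0.12 and -0.07, a shift that comes with scaling to the median of all probe sets and was 0.01, 0.00 and -0.01 without it. Relative to this shift the synthetases stood at 0.10, 0.06 and -0.08 and the factors at 0.03, 0.03 and -0.01. Synthetases minus factors came to 0.07, 0.04 and -0.07, with an SD of 0.07 over the pools. With 1 value per pool these class differences have no test. Probe sets within a class spread widely, with an SD of 0.15 to 0.27 for synthetases and 0.18 to 0.22 for factors in any pool.

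No synthetase probe set above background was highest in pool 3 (0 of 16), nor were more than 4 of the 49 factor probe sets, whereas 20.2% of all single-gene probe sets above background were. The 4 factors were Pabpc1, Paip2, Gspt2 and Eif4ebp2. Without scaling these counts were 0 and 10 against 29.7% of all, and after quantile normalisation 1 and 10 against 31.2%. Pool 2 was the highest for 12 of 16 synthetase probe sets and pool 1 for 4, against 54.6% and 25.2% of all. Without scaling these counts were 7 and 9, against 34% and 36.3% of all. Pool 3 was the lowest for 9 of 16, against 43.9% of all, and without scaling for 8, against 34.3%. Among all 65 members, pool 1 was the lowest for 22 and pool 2 for 10, against 39.4% and 16.7% of all. These probe sets come from the same 3 arrays and are not independent replicates.

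**Figure D5:**
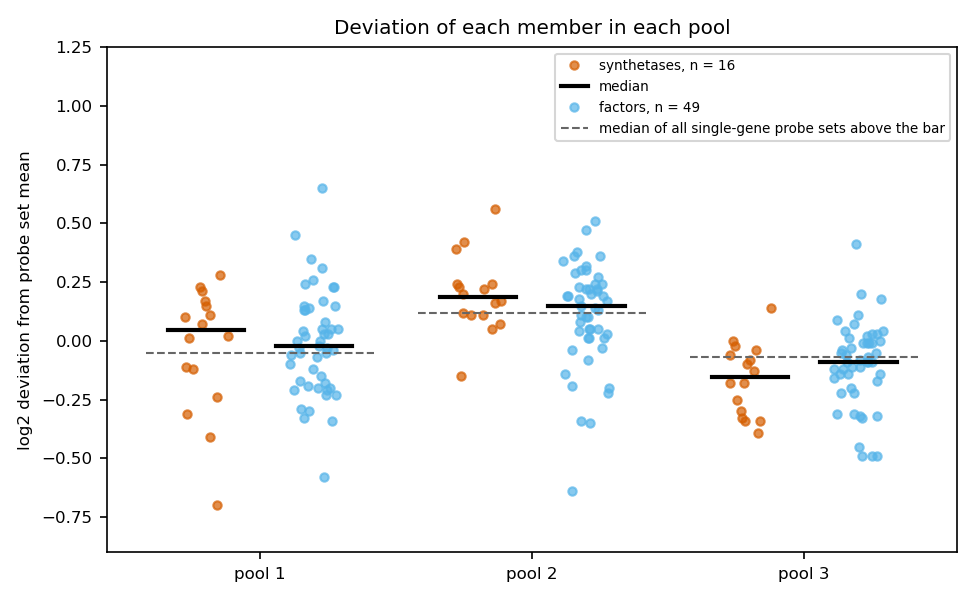
Log2 deviation of each member above background from its own mean, by pool, for 16 synthetase probe sets (orange) and 49 factor probe sets (blue). Black bars are class medians and dashed lines the medians of all single-gene probe sets above the bar, -0.05, 0.12 and -0.07, and the points of the classes overlap in each pool.

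Other genes of the pathway were examined from a list of 36 measured genes, each by 1 probe set, and 32 were above background in all pools, against 46.1% of all genes. None of the 33 tested had excess spread, against 1.04% of all genes tested in this way. An unadjusted p below 0.05 was found for 2 of the 33, against 6.76% of all tested probe sets. Farsa, the alpha subunit of phenylalanyl-tRNA synthetase, had 477.0, 990.8 and 756.9 in pools 1, 2 and 3. Aimp1, a scaffold of the multi-synthetase complex, had 1002, 1623 and 671.7. Eprs, the bifunctional synthetase for glutamate and proline, had 695.5, 494.7 and 498.7, highest in pool 1. Farsb, the partner subunit of Farsa, was also highest in pool 1, at 628.8, 418.5 and 455.3, the pool in which Farsa was lowest. Mitochondrial factors were above background too, among them Tufm (741.0 ± 152.3), the mitochondrial elongation factor, and Mtif2 (800.2 ± 108.6), its initiation counterpart (SD, n = 3 each). Mtor, the growth kinase that controls the eIF4E-binding proteins, averaged 1097 ± 160.4. Of 18 ribosomal protein genes measured, 12 were above background, against 46.1% of all genes. None of 13 tested had excess spread by limma, nor an unadjusted p below 0.05. The shares were 1.04% of all genes tested in this way and 6.76% of all tested probe sets, so 13 genes are too few to tell.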

How the data were processed

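The deposited table holds 1 intensity for each probe set and array, as processed by the authors and not logged. The arrays were MG-U74Av2, per the labels. The summarisation software was not given in the sources used here, nor was a background correction. In each deposited array, the mean without the lowest and highest 2% was 500.2 to 500.3. The number of arrays limits the precision.

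Of 12488 probe sets 66 were controls. Gene names came from the platform annotation: 10833 probe sets had 1 gene, 396 several and 1193 were unnamed here. Symbols updated by gene ID gave the same 97 members. Arrays were scaled to a common median (factors 0.962, 1.09 and 0.959), floored at the 20th percentile (42.2) and put on the log2 scale. The variance of each of the brighter 50% of probe sets was set against the prior variance of limma's squeezeVar (limma 3.58.1, robust, trend on level), upper tail, Benjamini-Hochberg adjusted over all tested. On simulated data (10 runs on 6211 probe sets) 7.61%, 76.9% and 96.4% of 2-, 4- and 8-fold changes were recovered, with 0.633% of calls false. The simulated noise was normal at the prior variance, as the test assumes, so these shares need not hold for the real arrays.

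The naming rule for the members uses no values, but it, the gene lists, motifs and tests were chosen with earlier results of these data known. Named were related gene pairs, genes with several probe sets, members above background by role, and the most and least even members. The alternatives were another bar, scaling, filter, floor, pseudocount (50) or prior, 1 probe set per gene and leaving out each pool. Protein sequences were not used here.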

Additional observations from a re-analysis of the deposited data

How the results depend on the processing

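The count of synthetase probe sets above background was 15 to 18 and that of factor probe sets 41 to 58 under all alternatives, against 16 and 49. The lower ends were those of 1 probe set per gene, out of 16 and 56 genes. The upper ends were those of a bar at the 75th percentile, which 58.1% of all single-gene probe sets passed. No member had excess spread under any alternative, at a lowest limma adjusted p among members of 0.128 to 0.611, and 3 to 5 members had an unadjusted p below 0.05. The count over all tested probe sets was 83. It was 6 without scaling, 6 with quantiles normalised, 27 in the brightest 25%, 38 without the robust option and 0 when dim probe sets were kept, where 1612 had an unadjusted p below 0.05. Leaving out pools gave 9 (pool 2) to 30 (pool 1). The cause was not tested. With so few calls over the whole array, the lack of member calls under these settings says little. With all 3 pools kept, the difference of synthetases minus factors had the same sign in each pool under every alternative. When 1 pool is left out, the deviations in the other 2 are equal and opposite, so each such setting gives only 1 value. It was 0.10 for pool 2 without pool 1, and 0.10 for pool 1 without pool 2. Without pool 3 it was 0.04 for pool 1 and therefore -0.04 for pool 2. These values are not separate checks of each pool. The pool 1 difference of 0.07 was 0.02 after quantile normalisation and 0.02 over all member probe sets, those below the bar included. The 67 alternative values for 7 named members all stayed above the threshold. No paired analysis was possible because there is only 1 group.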
